A study of Mus musculus with 12 samples.

Results

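The transcripts examined here encode 10 proteins of the endoplasmic reticulum (ER) and of its stress response, read out in tumour-associated macrophages (TAMs) of mice given picrotoxin or its solvent. They are the chaperones Hspa5 and Hsp90b1, the lectin chaperones Calr and Canx, the disulfide isomerases Pdia3, Pdia4 and Pdia6, and the stress-response genes Xbp1, Herpud1 and Dnajb9. The genes were chosen by name as a functional group, and all 10 were found among the 24781 rows of the table of molecule counts. Wild-type mice were inoculated in the skin of the flank with MC38 cells, derived from a mouse colon adenocarcinoma, and received intraperitoneal DMSO or picrotoxin, a GABA type A receptor antagonist, from the day before and then on alternate days. On day 7 after inoculation 100 CD45+CD11b+F4/80high cells were sorted from the tumour for each library, which gave 6 DMSO libraries and 6 picrotoxin libraries. All mice were wild type and all carried tumours, so neither group shows TAMs without a tumour or without the solvent. The study used adult mice of both sexes. The labels call the libraries of a group independent preparations, while the study's methods give each its own mouse and its figure text counts fewer mice than libraries. Which libraries would share a mouse is not stated, so n here counts libraries, and the p-values measure the spread between libraries, which may be partly technical, and would be too small if mice were shared.

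The ER is where secreted and membrane proteins are folded, glycosylated and joined by disulfide bonds. When unfolded protein accumulates there, the membrane sensors IRE1, PERK and ATF6 start the unfolded protein response (UPR). IRE1 splices the messenger RNA of the transcription factor XBP1, ATF6 is cut to release a transcription factor, and PERK slows translation while favouring ATF4. Together these branches raise transcription of ER chaperones and of the machinery that removes misfolded proteins. Macrophages carry a large secretory and lysosomal load, and the lectin chaperones and Pdia3 also take part in loading peptides on MHC class I molecules.

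The libraries held 201697 to 309617 molecules, and 9580 genes with a mean normalized number of molecules above 1 were tested. Normalized molecules are counts divided by a size factor per library. The sorted cells carried the transcripts of macrophages, whose 12 listed markers summed to 1.09% ± 0.135 of all molecules with DMSO and 1.14% ± 0.0543 with picrotoxin (SD, n = 6; two-sided exact permutation p = 0.418). Of the 12, 3 had an unadjusted p under 0.05 in edgeR, beside 7.77% of all tested genes. The B and plasma cell transcripts Ms4a1, Cd79a, Pax5, Jchain and Mzb1 were at 0 in all 12 libraries, and the 10 markers of that list summed to 11 to 23 molecules in DMSO and 4 to 21 in picrotoxin libraries. Fibroblast and matrix transcripts were uneven. The 13 of that list summed to 207 to 1404 molecules in DMSO and 278 to 510 in picrotoxin libraries, and none of them was at 0 throughout. Of the 10 that were tested, 9 had an unadjusted p under 0.05 and were lower with picrotoxin, as were 4.11% of all tested genes. Their summed share was 0.244% ± 0.151 with DMSO and 0.175% ± 0.0468 with picrotoxin (SD, n = 6; two-sided exact permutation p = 0.353). With the mean log2 CPM of these transcripts as a covariate, and with DMSO replicates 3 and 5 left out, 0 of the 10 ER genes had an unadjusted p under 0.05. Lists of other cells had few molecules in DMSO and picrotoxin libraries, from 0 to 1 and 0 to 23 for T and NK cells, 5 to 10 and 4 to 10 for neutrophils, 0 to 7 and 1 to 4 for dendritic cells, and 8 to 14 and 8 to 21 for epithelial cells. The 23 T and NK molecules were in picrotoxin replicate 6. The epithelial share was 0.00426% ± 0.00112 with DMSO and 0.00671% ± 0.00267 with picrotoxin (SD, n = 6; two-sided exact permutation p = 0.0649). Of its 6 markers 4 were at 0 throughout. The same test gave p of 0.336 or more for the T and NK, neutrophil and dendritic lists. Libraries numbered 1 and 2 stand apart from those numbered 3 to 6 in earlier results of these data, although the labels name no batch, so the fit within libraries 3 to 6 is given for the 10 genes and for the counts of the wider list.

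A stretch of promoter DNA is printed for the genes that hold a known ER stress sequence. The genes were chosen as ER chaperones and stress-response genes, so finding such a sequence among them is a description and not an independent result. The ER stress response element (ERSE), bound by ATF6 and XBP1 together with NF-Y, was searched as CCAAT and CCACG with 9 bases between them on both strands of RefSeq promoters (GRCm38.p6, 250 bases before to 50 after each start), in which all 10 genes matched an entry. It was present in 5 of the 10, Hspa5, Hsp90b1, Calr, Canx and Pdia6, against 39 of 32851 promoters (0.119%). Capitals mark CCAAT and CCACG, or their reverse complements ATTGG and CGTGG where the match lies on the other strand, and each sequence reads 5′ to 3′ along the strand of its gene. That of Hspa5 overlaps an exon annotated in GENCODE, and the others overlap none.
Hspa5, chr2:34772020-34772048, plus strand, match from 65 bases before the start: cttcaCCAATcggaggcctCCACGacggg
Hsp90b1, chr10:86705623-86705671, minus strand, match from 212 bases before the start: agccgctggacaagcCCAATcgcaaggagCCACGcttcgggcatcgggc
Hsp90b1, chr10:86705518-86705566, minus strand, match from 107 bases before the start: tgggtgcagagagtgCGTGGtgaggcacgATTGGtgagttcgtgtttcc
Calr, chr8:84847060-84847108, minus strand, match from 162 bases before the start: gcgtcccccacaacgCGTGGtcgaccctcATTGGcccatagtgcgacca
Canx, chr11:50325785-50325833, minus strand, match from 145 bases before the start: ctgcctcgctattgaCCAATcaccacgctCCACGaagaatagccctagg
Pdia6, chr12:17266476-17266524, plus strand, match from 98 bases before the start: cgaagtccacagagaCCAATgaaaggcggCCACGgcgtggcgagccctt

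Herpud1 held the related element ERSE-II, searched as ATTGG and CCACG with 1 base between them and present in 12 of 32851 promoters (0.0365%), and further from its start an ATF4 element, searched as TTGCATCA and present in 294 (0.895%). Both are shown because no other gene of the 10 held either. The UPR element TGACGTGG was in none of the 10 promoters and in 222 of all (0.676%). Pdia3, Pdia4, Xbp1 and Dnajb9 held none of the 4 sequences in this window, which says only that these letters are not there.
Herpud1 ERSE-II, chr8:94386362-94386402, plus strand, match from 52 bases before the start: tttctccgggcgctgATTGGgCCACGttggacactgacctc
Herpud1 ATF4 element, chr8:94386302-94386339, plus strand, match from 112 bases before the start: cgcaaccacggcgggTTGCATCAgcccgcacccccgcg

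None of the 10 transcripts had an unadjusted p under 0.05 between picrotoxin and DMSO in edgeR's quasi-likelihood test, where 7.77% of the 9580 tested genes passed (744 genes). None had an adjusted p under 0.05 either, against 0.0522% of all tested genes (5 genes), and DESeq2 gave 0 members at an unadjusted p under 0.05 against 3.82% of genes, and 0 at an adjusted p under 0.05 against 0.0209%. The log2 fold changes of the 10, picrotoxin against DMSO, ran from -0.08 to 0.44 with a median of 0.12, and 4 were below 0, beside a median of -0.01 and 50.8% below 0 among all tested genes. The values of the 2 groups overlapped for all 10 genes, as they did for nearly all tested genes, of which only 0.386% had groups that did not overlap. Of the 60 picrotoxin values, which are 10 genes in the same 6 libraries, 48 lay inside the range of the DMSO libraries. The same share over all tested genes was not computed, so this count is a description only. Fewer cells with a transcript and fewer transcripts per cell cannot be told apart in pools of sorted cells.

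**Figure D1:**
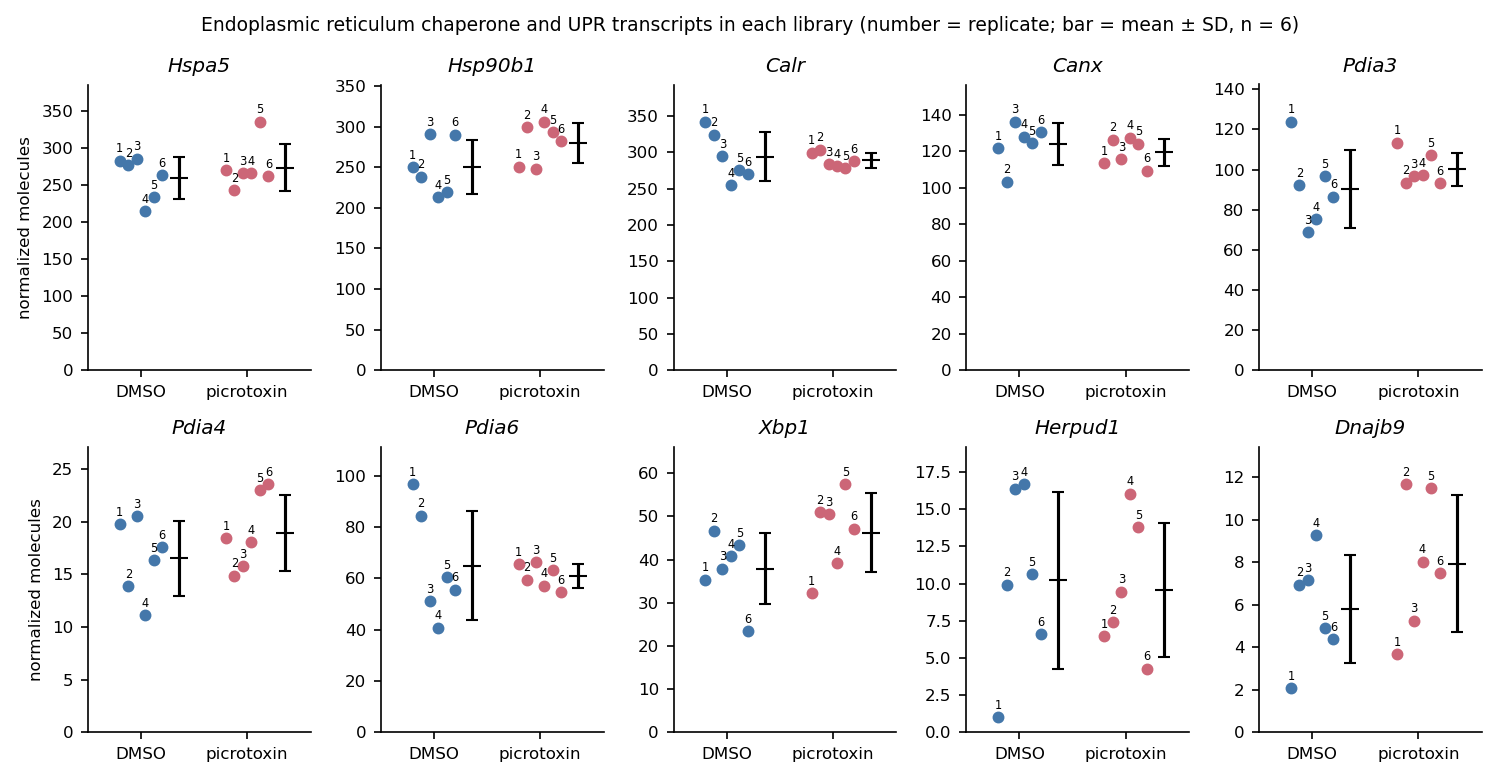
Normalized molecules (vertical axis, from 0) of each of the 10 transcripts in every library, with 6 DMSO libraries in blue and 6 picrotoxin libraries in red, the replicate number over each point, and the mean ± SD to the right of each group. The groups overlap in all 10 panels, and the DMSO points are more scattered than the picrotoxin points for Pdia6, Pdia3 and Calr.

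Per kilobase of transcript, Calr was the most abundant of the 10 in DMSO libraries, at 585 ± 66.8 CPM (counts scaled to library size) per kilobase (SD, n = 6). Hsp90b1 followed at 385 ± 51.0 and Hspa5 at 307 ± 33.1 on the same scale. Pdia3 at 142 ± 31.7, Pdia6 at 130 ± 43.0 and Canx at 126 ± 11.4 differed by less than their spread between libraries. Xbp1 stood at 77.4 ± 16.4. Pdia4 at 29.96 ± 6.41 and Herpud1 at 22.6 ± 13.0 lay within their spread of each other, as did Herpud1 and Dnajb9, which was lowest at 10.2 ± 4.36. Molecules were primed at the poly(A) end, so a level per length understates long transcripts. The order of the 10 by level per kilobase was the same in picrotoxin libraries, from Calr at 559 ± 19.6 to Dnajb9 at 13.6 ± 5.62.

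Hspa5 (chromosome 2, 34771970 to 34777547, plus strand, GRCm38, 9 exons in the transcript used) encodes BiP, the ER Hsp70 that binds unfolded chains and holds the UPR sensors inactive. It had 215.2, 270.3 and 285.8 normalized molecules as the lowest, median and highest of the DMSO libraries, and 243.1, 266 and 335.8 in picrotoxin libraries. Picrotoxin replicate 5 lay above all other libraries, DMSO replicate 4 lay below them, and the groups otherwise overlapped. The means were 259.8 ± 28.9 and 273.9 ± 31.8 (SD, n = 6), and the log2 fold change was 0.09 (SE 0.10, unadjusted p = 0.379, adjusted p = 0.894). Its 95% interval covered folds from 0.926 to 1.22, and within libraries 3 to 6 alone the log2 fold change was 0.20 (unadjusted p = 0.0836).

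Hsp90b1 (chromosome 10, 86690209 to 86705509, minus strand, 18 exons) encodes GRP94, the ER member of the Hsp90 family, which folds Toll-like receptors and integrins. The DMSO libraries ran from 213.3 through a median of 244 to 290.9 normalized molecules and the picrotoxin libraries from 248.2 through 287.5 to 306. Of the picrotoxin libraries 5 of 6 lay above the DMSO mean, but DMSO replicates 3 and 6 reached the same height as most of them. edgeR gave a log2 fold change of 0.17, an SE of 0.10 and a 95% interval of -0.03 to 0.37 (unadjusted p = 0.0888, adjusted p = 0.742). Without DMSO replicate 3 the unadjusted p was 0.0381, and without DMSO replicate 6 it was 0.0401, with log2 fold changes of 0.21 and 0.22 and adjusted p of 0.735 and 0.737. Other omissions moved the log2 fold change the other way. Over all fits without 1 library it ran from 0.12, without DMSO replicate 4 (unadjusted p = 0.238), to 0.22. The gene shares 415 exon bases with the pseudogene 1810014B01Rik on the opposite strand, which had 16 molecules in all libraries together, and whether counting used strand is not given in the sources used here.

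Calr (chromosome 8, 84841850 to 84846934, minus strand, 9 exons) encodes calreticulin, a soluble calcium-binding lectin chaperone. Its lowest, median and highest DMSO values were 255.1, 285.3 and 342.3 normalized molecules, and those with picrotoxin were 278.3, 286.1 and 303.7. DMSO replicates 1 and 2 were above every picrotoxin library, and all 6 picrotoxin values lay inside the DMSO range. The means were 293.8 ± 33.7 and 289.1 ± 10.3 (SD, n = 6), with a log2 fold change of -0.01 (SE 0.09, unadjusted p = 0.905, adjusted p = 0.993). DMSO replicates 1 and 2 averaged 333.5 and replicates 3 to 6 averaged 274 normalized molecules. Within libraries 3 to 6 alone the log2 fold change was 0.07 (unadjusted p = 0.507), and without DMSO replicate 1 it was 0.04. The sign was also positive without DMSO replicate 2 or picrotoxin replicate 5.

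Canx (chromosome 11, 50293961 to 50325673, minus strand, 15 exons) encodes calnexin, the membrane-bound counterpart of calreticulin. The DMSO libraries had 103.3, 126.2 and 136.2 normalized molecules as lowest, median and highest values, and the picrotoxin libraries had 109.3, 119.9 and 127.4. DMSO replicate 2 was the lowest of all, and every picrotoxin library lay inside the DMSO range. Its log2 fold change was -0.04 with a 95% interval of -0.25 to 0.16 (SE 0.10, unadjusted p = 0.664, adjusted p = 0.955). Canx and Pdia4 varied least between libraries relative to counting noise. For Canx, chi-square per degree of freedom over the 12 libraries was 0.760, where the median of 3741 genes with a mean of at least 10 was 1.23.

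The disulfide isomerases differed from each other in level and in spread. Pdia3 (chromosome 2, 121413775 to 121438687, plus strand, 13 exons) encodes ERp57, which works with both lectin chaperones. Its DMSO values ran from 68.6 through a median of 89.4 to 123.8 normalized molecules and its picrotoxin values from 93.2 through 97.0 to 113.4. All 6 picrotoxin libraries lay above the DMSO mean of 90.5 ± 19.4 (SD, n = 6), yet DMSO replicate 1 was the highest of all 12, so the groups overlapped. Its log2 fold change was 0.16 with a 95% interval of -0.09 to 0.41 (SE 0.12, unadjusted p = 0.209, adjusted p = 0.817). Without DMSO replicate 1 it was 0.26, with an unadjusted p of 0.0331 and an adjusted p of 0.544, and within libraries 3 to 6 alone it was 0.28, with an unadjusted p of 0.0439 and an adjusted p of 0.504. Other omissions moved it the other way. Over all fits without 1 library it ran from 0.09, without DMSO replicate 3 (unadjusted p = 0.458), to 0.26.

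Pdia4 (chromosome 6, 47796141 to 47813430, minus strand, 10 exons) encodes ERp72, an isomerase with several thioredoxin-like active sites. The lowest, median and highest values were 11.1, 17.0 and 20.5 normalized molecules in DMSO and 14.9, 18.3 and 23.6 in picrotoxin libraries. Picrotoxin replicates 5 and 6 exceeded all DMSO libraries and the other 4 were inside the DMSO range. The log2 fold change of 0.21 had an SE of 0.20 and a 95% interval of -0.20 to 0.61 (unadjusted p = 0.31, adjusted p = 0.87). Pdia4 had 12 to 24 molecules in a library, and its chi-square per degree of freedom of 0.717 was below the median of all genes.

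Pdia6 (chromosome 12, 17266545 to 17284770, plus strand, 13 exons) encodes P5, an isomerase that associates with BiP. The DMSO values ran from 40.8 through 58.1 to 96.8 normalized molecules, whereas the picrotoxin values ran only from 54.7 through 61.4 to 66.3. DMSO replicates 1 and 2 stood far above the picrotoxin libraries, DMSO replicates 3 and 4 stood under them, and all picrotoxin values lay between. The means of 64.9 ± 21.3 and 61.0 ± 4.68 (SD, n = 6) gave a log2 fold change of -0.07 (SE 0.16, 95% interval -0.39 to 0.25, unadjusted p = 0.67, adjusted p = 0.957). DMSO replicates 1 and 2 averaged 90.6 and replicates 3 to 6 averaged 52.1 normalized molecules, while the same replicates of the picrotoxin group averaged 62.5 and 60.3. Within libraries 3 to 6 alone the log2 fold change was 0.22 (unadjusted p = 0.162, adjusted p = 0.723), and it was 0.07 without DMSO replicate 1 and 0.03 without DMSO replicate 2.

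Xbp1 (chromosome 11, 5520659 to 5525893, plus strand, 5 exons) encodes the transcription factor of the IRE1 branch, and molecule counts per gene do not separate its spliced from its unspliced form. Its lowest, median and highest values were 23.4, 39.4 and 46.7 normalized molecules in DMSO and 32.3, 48.8 and 57.5 in picrotoxin libraries. Of the 6 picrotoxin libraries 4 were above all DMSO libraries, while picrotoxin replicate 1 was among the lowest and DMSO replicate 6 was the lowest of all. The means were 37.9 ± 8.13 and 46.2 ± 9.10 (SD, n = 6), and the log2 fold change of 0.30 had a 95% interval of -0.03 to 0.63 (SE 0.16, unadjusted p = 0.0758, adjusted p = 0.726). This was the smallest p of the 10. Within libraries 3 to 6 alone the log2 fold change was 0.45, with an unadjusted p of 0.0233 and an adjusted p of 0.429. Leaving out picrotoxin replicate 1 or DMSO replicate 2 gave 0.39 and 0.37 with unadjusted p of 0.0237 and 0.0353 and adjusted p of 0.569 and 0.519. Other omissions moved it the other way. Over all fits without 1 library it ran from 0.18, without DMSO replicate 6 (unadjusted p = 0.265), to 0.39.

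Herpud1 (chromosome 8, 94386438 to 94395377, plus strand, 8 exons) encodes a membrane protein that helps assemble the complex for ER-associated degradation. It had 122 molecules in all libraries together, with 1.04, 10.3 and 16.7 normalized molecules as lowest, median and highest DMSO values and 4.29, 8.45 and 16.1 with picrotoxin. DMSO replicate 1, with a single molecule, was far below the others, and DMSO replicates 3 and 4 and picrotoxin replicate 4 were the highest. Its log2 fold change was -0.08 with an SE of 0.34 and a 95% interval of -0.78 to 0.62 (unadjusted p = 0.819, adjusted p = 0.982), so a difference of 1.5-fold was not resolved with these libraries. The sign was not stable, since leaving out DMSO replicate 4 gave 0.10 and leaving out DMSO replicates 3 and 5 together gave 0.14.

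Dnajb9 (chromosome 12, 44205559 to 44210326, minus strand, 3 exons) encodes ERdj4, a J-domain co-chaperone of BiP. It was the rarest of the 10, with 83 molecules in all. Its DMSO values ran from 2.08 through a median of 5.93 to 9.28 normalized molecules and its picrotoxin values from 3.69 through 7.76 to 11.7. Picrotoxin replicates 2 and 5 were the highest and DMSO replicate 1 was the lowest, with overlap between them. The log2 fold change of 0.44 had the largest size of the 10 and an SE of 0.34, with a 95% interval of -0.24 to 1.13 (unadjusted p = 0.196, adjusted p = 0.815). A stretch of 156 bases of its transcript is 98.08% identical to the pseudogene Gm6568, which had 0 molecules in the table.

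The intervals show how far these libraries limit a change. For 6 of the 10 transcripts, Hspa5, Hsp90b1, Calr, Canx, Pdia3 and Pdia6, the 95% interval lay inside a 1.5-fold change either way. Pdia4, Xbp1, Herpud1 and Dnajb9 had intervals that passed it, with upper folds of 1.53, 1.55, 1.54 and 2.19. Within libraries 3 to 6 alone the log2 fold changes not given above were 0.18 for Hsp90b1, -0.10 for Canx, 0.31 for Pdia4, -0.13 for Herpud1 and 0.37 for Dnajb9, all with an unadjusted p of 0.131 or more. The direction was the same in all alternative fits for Hspa5, Hsp90b1, Canx, Pdia3, Pdia4, Xbp1 and Dnajb9, although few of those fits gave an unadjusted p under 0.05 to any of them.

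**Figure D2:**
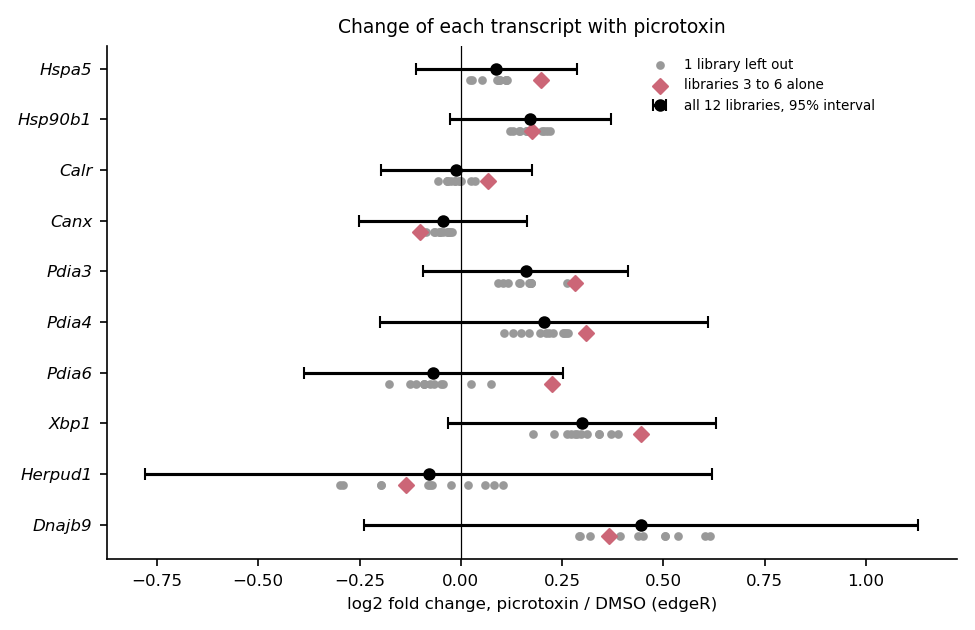
Log2 fold change, picrotoxin against DMSO, of each transcript from edgeR (horizontal axis), with black points and 95% intervals for all 12 libraries, grey points for the fits that left out 1 library, and red diamonds for libraries 3 to 6 alone. All 10 intervals cross 0, and the diamonds of Calr and Pdia6 lie on the other side of 0 from their black points, at 0.07 and 0.22.

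Summed over the 10 transcripts, the share of a library was 0.501% ± 0.0416 with DMSO and 0.509% ± 0.0279 with picrotoxin (SD, n = 6). The lowest, median and highest shares were 0.434%, 0.510% and 0.558% in DMSO and 0.485%, 0.502% and 0.564% in picrotoxin libraries. DMSO replicate 4 was lowest and picrotoxin replicate 5 highest, and the groups overlapped. The 95% Wilson interval of picrotoxin replicate 5 was 0.532% to 0.597%, and that of DMSO replicate 4 was 0.409% to 0.461%. Such intervals cover counting error only. Calr, Hspa5 and Hsp90b1 made up most of the sum, at 25.4% ± 1.38, 22.5% ± 0.903 and 21.7% ± 2.38 of the molecules of the 10 genes in DMSO libraries, and at 24.02% ± 1.57, 22.7% ± 1.83 and 23.2% ± 1.67 with picrotoxin.

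Several of these transcripts varied between libraries by more than counting alone would give. The coefficient of variation (CV, SD over mean) of Pdia6 was 32.8% over DMSO and 7.67% over picrotoxin libraries, where counting alone would give 12.4%. For Pdia3 the values were 21.4% and 8.15% against 10.1% from counting, and for Calr 11.5% and 3.57% against 5.78%. For Pdia6, Pdia3 and Calr only the DMSO libraries exceeded the counting value, and the picrotoxin libraries lay below it. The CV was larger in DMSO for 9 of the 10 transcripts, all but Hspa5, and for 52.15% of the 3741 tested genes with a mean of at least 10, and the difference in spread was not tested. The gap was small for Pdia4, at 21.5% against 19.1%, for Xbp1, at 21.4% against 19.7%, and for Dnajb9, at 43.6% against 40.7%. Chi-square per degree of freedom over the 12 libraries was above the median of those genes for 7 of the 10, with the largest values for Pdia6 at 3.78, Hsp90b1 at 3.72 and Hspa5 at 3.36. At a given spread beyond counting this measure rises with the number of molecules. Abundant genes such as Hspa5 and Hsp90b1 can therefore exceed the median through their level.

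**Figure D3:**
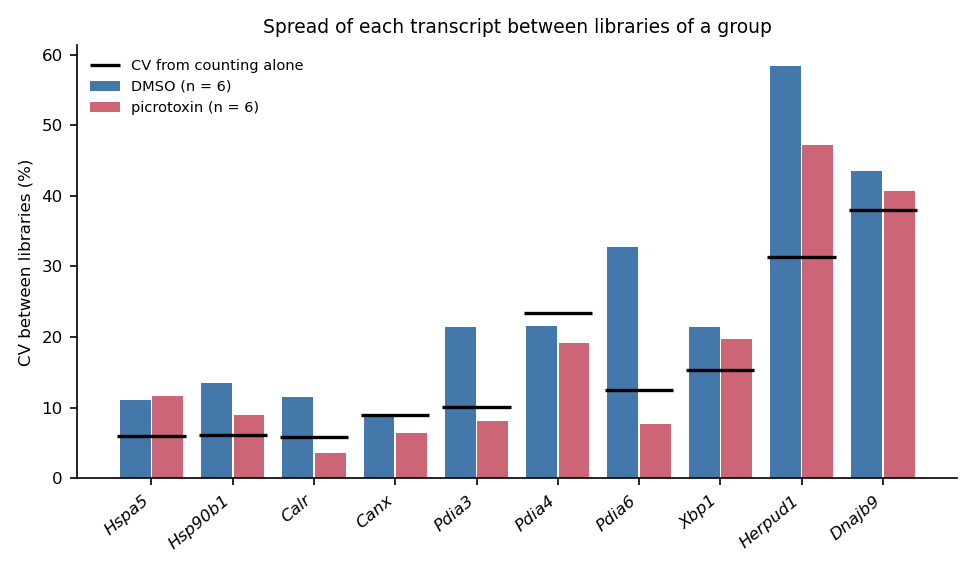
Coefficient of variation between the 6 libraries of a group in percent (vertical axis, from 0) for each transcript, blue for DMSO and red for picrotoxin, with a black line at the value that counting alone would give. The widest gap between the groups is that of Pdia6, at 32.8% and 7.67%, and Hspa5 alone has the taller red bar, at 11.6% against 11.1%.

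The transcripts with high spread did not all deviate in the same libraries. After the group means were removed, Calr and Pdia6 moved together over the 12 libraries (Pearson r = 0.86, permutation p = 0.0131; Spearman rho = 0.68, permutation p = 0.06), with r of 0.61 without DMSO replicates 1 and 2 and 0.57 within the 8 libraries numbered 3 to 6. Pdia3 and Pdia6 gave r = 0.83 (permutation p = 0.0168) and rho = 0.71 (permutation p = 0.0284), and r remained at 0.72 without DMSO replicates 1 and 3. The rare stress genes Herpud1 and Dnajb9 gave r = 0.70 (permutation p = 0.0195) and rho = 0.70 (permutation p = 0.0189), with r of 0.59 without DMSO replicate 1 and picrotoxin replicate 6. Other pairs moved in opposite directions, with r = -0.72 for Pdia3 and Herpud1 (permutation p = 0.0335; rho = -0.46, permutation p = 0.166), r = -0.66 for Pdia3 and Dnajb9 (permutation p = 0.021; rho = -0.62, permutation p = 0.0473) and r = -0.65 for Calr and Herpud1 (permutation p = 0.0493; rho = -0.57, permutation p = 0.0857). Without DMSO replicate 1 and the other library farthest from the median these became -0.18, -0.48 and -0.49, and within libraries 3 to 6 they were -0.32, -0.34 and -0.32. Of the 45 pairs, 7 had a permutation p under 0.05 and 0 had one after Benjamini-Hochberg adjustment, where the smallest was 0.19. DMSO replicate 1 held both the highest Pdia3, Pdia6 and Calr and the lowest Herpud1 and Dnajb9 of the 12 libraries.

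**Figure D4:**
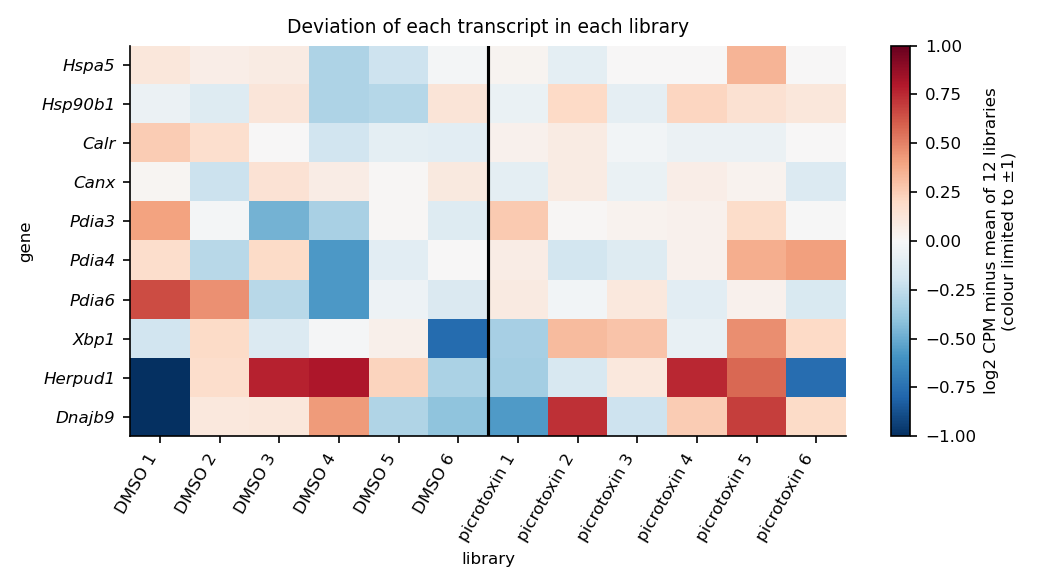
Log2 CPM of each transcript in each library as a deviation from its mean over the 12 libraries, with rows for genes, columns for libraries, a black line between the groups and colours limited to 1 either way. DMSO replicate 1 is red for Pdia6, Pdia3 and Calr and dark blue for Herpud1 and Dnajb9, and picrotoxin replicate 5 is red for Hspa5, Pdia4, Xbp1, Herpud1 and Dnajb9.

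Hspa5 was used to rank other transcripts by likeness of pattern, as the correlation of log2 CPM after removal of the group means over the 12 libraries, a description without a test among 3740 genes with a mean of at least 10. Pdia4 was the closest of the other 9 members, with r = 0.69 at rank 38, followed by Pdia6 with 0.54 at rank 162, Hsp90b1 with 0.47 at rank 249 and Calr with 0.44 at rank 299. Canx at -0.09 and Xbp1 at 0.06 stood near the middle of the ranking. Outside the 10, the highest were Mlec, which encodes the ER lectin malectin, at 0.92, Parp9 at 0.88, Cox7b, a subunit of cytochrome c oxidase, at 0.87, and Sec61b, a subunit of the translocon, at 0.86. Snx6, Slfn8, Maea, Gng5, Rbm25 and Rsbn1l followed between 0.84 and 0.78. Within libraries 3 to 6 the values of Mlec and Sec61b were 0.94 and 0.90. Without picrotoxin replicate 5 and DMSO replicate 4, the libraries with the most extreme Hspa5, they were 0.85 and 0.74, Gng5 and Rbm25 fell to 0.56, Slfn8 fell to 0.62, and the r of Pdia4 was 0.47. The median r over the 28 pairs of the 8 members with a mean of at least 10 was 0.14, that over all 45 member pairs was 0.07 with 24 of them above 0, and that over all pairs of the 3741 genes was 0.01.

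A wider set of ER genes was listed by role from textbook knowledge. Of its 101 genes 95 were tested, 6 of them higher and 4 lower at an unadjusted p under 0.05, beside 3.65% higher and 4.11% lower of all tested genes. All 10 had a mean of at least 10, as 67 genes of the list did, and among the 3741 genes of that level 6.71% were higher and 4.09% lower. None of the 95 had an adjusted p under 0.05, the smallest being 0.426. DESeq2 gave an unadjusted p under 0.05 to 4, beside 3.82% of all tested genes. Of the 10 called genes 4 kept an unadjusted p under 0.05 within libraries 3 to 6 alone (Hyou1, Kdelr2, Sec61a1 and Tmbim6), 3 with the matrix transcripts as a covariate (Fkbp2, Sec61a1 and Sec62), and 1 without DMSO replicates 3 and 5 (Sec62). Over all tested genes such a p was given to 744 in the main fit and 932 within libraries 3 to 6 alone. It was given to 562 with the matrix covariate and 516 without DMSO replicates 3 and 5. The median log2 fold change of the 95 was 0.03, and 46 were below 0. Pdia5, Fkbp11, Derl3, Ern1, which encodes the sensor IRE1, Creb3l2 and Kdelr3 were below the filter, with 12, 8, 1, 8, 2 and 13 molecules in all. Kdelr3, a retrieval receptor like Kdelr2, had 4 molecules each in DMSO replicates 3, 5 and 6, 1 in DMSO replicate 1, and 0 in the other libraries, all 6 picrotoxin libraries included. When all genes with at least 1 molecule were tested, Kdelr3 had an adjusted p = 0.0391 (edgeR). In that fit 81 of 13815 genes had an adjusted p under 0.05, against 5 of 9580 in the main fit. Kdelr3 passed the filter in 8 fits without 1 library, each of which left out a library where it had 0 molecules. In these its unadjusted p was under 0.05 and its adjusted p was 0.163 to 0.455. The fits that left out a library holding its molecules did not test it. Its mean passed the filter through DMSO libraries alone, so these fits are no separate support. Within libraries 3 to 6 alone its unadjusted p was 0.00288 and its adjusted p was 0.196. DMSO replicates 3, 5 and 6 also held the most fibroblast and matrix molecules, and the part of these in the Kdelr3 counts was not tested.

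Among 20 ER-resident folding factors 2 were higher and 1 lower at an unadjusted p under 0.05, beside 3.65% higher and 4.11% lower of all tested genes. Counts this small in a class are a description and not a result about the class. Hyou1, a large Hsp70-like exchange factor of BiP, had 26.3 ± 6.58 normalized molecules in DMSO and 34.6 ± 5.44 in picrotoxin libraries, a log2 fold change of 0.42 (unadjusted p = 0.0202, adjusted p = 0.526). Erp44, which retains partly assembled proteins in the early secretory pathway, had 17.2 ± 2.55 and 22.8 ± 2.81, a log2 fold change of 0.41 with all 6 picrotoxin libraries above the DMSO mean (unadjusted p = 0.0296, adjusted p = 0.586). Fkbp2, a prolyl isomerase, was lower, at 16.6 ± 5.12 against 23.5 ± 3.41, a log2 fold change of -0.49 (unadjusted p = 0.0185, adjusted p = 0.514). Other UPR targets of this class, Sdf2l1, Manf, Dnajc3 and Creld2, had log2 fold changes of 0.06, 0.04, -0.07 and -0.31 with unadjusted p of 0.706, 0.783, 0.641 and 0.202. The ERSE was also in the promoters of Creld2, Dnajc3, Derl3 and Syvn1, among 81 genes of the wider list with a promoter entry.

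None of 17 ER-associated degradation genes had an unadjusted p under 0.05 in edgeR or in DESeq2, beside 7.77% and 3.82% of all tested genes. Selenos and the lectin Os9 had log2 fold changes of -0.31 (unadjusted p = 0.088) and 0.32 (unadjusted p = 0.093). The 7 tested stress sensors and transducers had a median of 0.32, and of these Tmbim6, an ER membrane protein that limits IRE1 signalling, was higher, at 182.8 ± 19.4 against 159.8 ± 10.7 normalized molecules, a log2 fold change of 0.21 (unadjusted p = 0.0451, adjusted p = 0.631). Atf6, the sensor itself, had a log2 fold change of 0.32 (unadjusted p = 0.113) and Creb3 had 0.34 (unadjusted p = 0.211). Eif2ak3, which encodes PERK, had only 2.22 ± 1.82 and 4.36 ± 2.23 normalized molecules, a log2 fold change of 0.99 with a 95% interval of -0.11 to 2.09 (unadjusted p = 0.0754). Of the 10 genes of the PERK and ATF4 branch, Eif2s1, the translation factor that PERK phosphorylates, had a log2 fold change of 0.33 with all 6 picrotoxin libraries above the DMSO mean (unadjusted p = 0.0397, adjusted p = 0.621). Atf4 had a log2 fold change of -0.13 (unadjusted p = 0.386), Ppp1r15a 0.38 (unadjusted p = 0.215) and Ddit3, which encodes CHOP, -0.02 (unadjusted p = 0.971), and the rare targets Trib3, Chac1 and Atf5 had -1.20, -1.93 and -0.74 with unadjusted p of 0.0752, 0.0847 and 0.0765, while Nupr1 had -0.53 (unadjusted p = 0.099) and the equally rare Sesn2 had 0.72 (unadjusted p = 0.373).

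In the translocon and signal peptidase group, 2 of 15 genes were higher and 1 lower at an unadjusted p under 0.05, with adjusted p of 0.563 to 0.622, and DESeq2 gave none of them an unadjusted p under 0.05. Over all tested genes 3.65% were higher and 4.11% lower at an unadjusted p under 0.05 in edgeR. Sec62 had a log2 fold change of 0.33 (unadjusted p = 0.0257) and Spcs2, a signal peptidase subunit, 0.30 (unadjusted p = 0.0416), while Sec61a1, the pore of the translocon, had -0.36 (unadjusted p = 0.0291). None of the 10 genes of N-glycan transfer and trimming passed, with Mogs at -0.48 (unadjusted p = 0.0751), Ganab at -0.27 (unadjusted p = 0.106) and Dad1 at -0.19 (unadjusted p = 0.307). Of 16 export and retrieval genes 2 were lower at an unadjusted p under 0.05 in edgeR and in DESeq2, beside 4.11% of all tested genes lower in edgeR. Neither had such a p with the matrix transcripts as a covariate or without DMSO replicates 3 and 5. Mcfd2, which forms a cargo receptor with Lman1, had 23.8 ± 7.20 normalized molecules in DMSO and 15.3 ± 5.80 in picrotoxin libraries, a log2 fold change of -0.64 (unadjusted p = 0.00944, adjusted p = 0.426), whereas Lman1 had 0.24 (unadjusted p = 0.24). Kdelr2, a receptor that returns BiP and other KDEL-bearing chaperones to the ER, had 38.3 ± 5.26 and 28.2 ± 7.94, a log2 fold change of -0.42 (unadjusted p = 0.0166, adjusted p = 0.501). The 10 genes named here with an unadjusted p under 0.05 kept one in 7 to 20 of 23 alternative fits, the fewest for Tmbim6 and the most for Fkbp2 and Mcfd2.

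**Figure D5:**
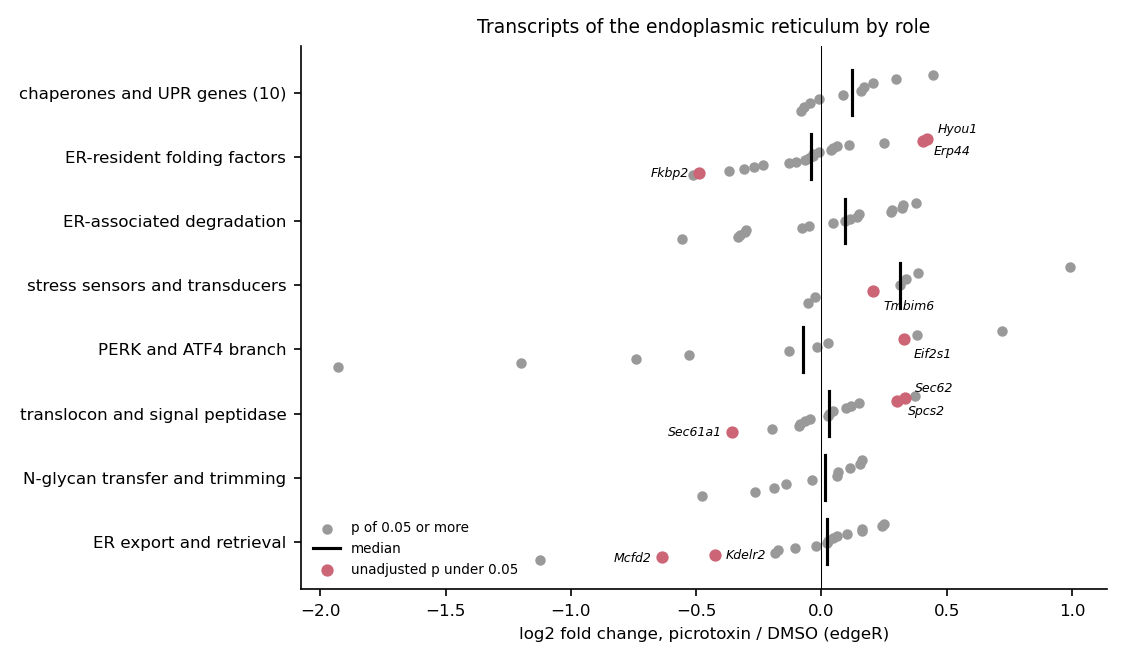
Log2 fold change, picrotoxin against DMSO, from edgeR (horizontal axis) of the 10 chaperone and UPR genes and of the 95 tested genes of the wider ER list by role, with a black bar at the median of each class. The 10 named red points had an unadjusted p under 0.05, 6 of them to the right of 0 and 4 to the left, and the median of the 10 chaperone and UPR genes was 0.12.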

How the data were processed

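The authors deposited counts of molecules per gene symbol, made from reads with molecular barcodes and an oligo-dT primer that favours the 3′ end, mapped to mm10 with STAR. How multiply mapped reads and strand were treated is not given in the sources used here. From the counts, genes with a mean above 1 (counts over DESeq2 size factors) were tested with the quasi-likelihood test of edgeR 4.0.16 (TMM, Benjamini-Hochberg over 9580 genes) in R 4.3.3, and SE was derived from the F statistic. DESeq2 1.42.0 (Wald test), other scalings, filters, covariates and left-out libraries were alternatives. Log2 CPM used a prior count of 2. All p-values of single genes are from edgeR unless another test is named, and correlations have two-sided permutation p-values. The fits were also run on simulated counts of independent libraries without shared mice. The changes set there were all larger than those of the 10 members, so the simulation does not show how the fits do at the members' size. The libraries totalled 201697 to 309617 molecules each, and a count of 0 in the smallest allowed a share of up to 0.00149% (3 molecules). The row of ribosomal RNA Rn45s took 7.37% to 13.7% of molecules in DMSO libraries and 11.7% to 15.2% in picrotoxin libraries, and it is part of the total behind each share and CPM per kilobase. Positions are those of GENCODE M21 on GRCm38, the assembly also called mm10, and promoters those of RefSeq. The genes, lists, tests and alternatives were chosen with earlier results of these data known. Named genes were all 10 members, up to 3 genes per role by smallest p with a mean of at least 10, and the 10 genes most correlated with Hspa5. Pdia5, Fkbp11, Derl3, Ern1, Creb3l2, Kdelr3 and the further genes of the UPR targets, sensors and ATF4 branch were named after their values were seen. The results of 2 genes that the rule or a marker list would name are not reported here.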

Additional observations from a re-analysis of the deposited data

Results flagged for a closer look

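Hspa5 in picrotoxin replicate 5 was far from the other picrotoxin libraries, at 335.8 normalized molecules against 243.1 to 270.0. Its gap to the nearest library was 0.71 of the whole range of the group, above the 95% critical value of Dixon's test for 6 samples.

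The summed share of the 10 transcripts was also far from the rest in picrotoxin replicate 5, at 0.564% of molecules against 0.485% to 0.508%, with a gap of 0.703 of the range. This library had the fewest molecules of all, 201697, and Hspa5 is part of the sum, so the 2 results are not separate. Without it the difference in share, picrotoxin minus DMSO, was -0.00289 percentage points against 0.00798 with all libraries. Of 22 groups of 6 libraries examined in this way 2 stood out, where chance gives about 1.1.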

How the results depend on the processing

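No member had an adjusted p under 0.05 in any of the 23 alternatives. The count of members with an unadjusted p under 0.05 was 0 with all libraries, 0 to 1 when 1 library was left out, 1 with a replicate block (Xbp1, unadjusted p = 0.049, adjusted p = 0.643) and 2 in libraries 3 to 6 alone (Pdia3 and Xbp1). The 1 member was Pdia3 without DMSO replicate 1, Xbp1 without DMSO replicate 2 or picrotoxin replicate 1, and Hsp90b1 without DMSO replicate 3 or 6. Over all genes an unadjusted p under 0.05 was given to 743 of 9580 with the replicate block and to 932 of 9666 in libraries 3 to 6 alone. The replicate numbers were not taken as pairs, since the deviations of same-numbered libraries over 3741 genes correlated between -0.00492 and 0.126 and only 1 of 6 was over 0.1, and over all genes the block moved the count with an adjusted p under 0.05 from 5 to 43. The log2 fold change of Calr, -0.01, was 0.067 in libraries 3 to 6 alone and -0.058 to 0.036 with 1 library left out. That of Pdia6, -0.07, was 0.22 in libraries 3 to 6 alone and -0.18 to 0.073 with 1 left out. That of Herpud1, -0.08, was 0.13 with the mean log2 CPM of matrix transcripts as a covariate, 0.14 without DMSO replicates 3 and 5, and -0.30 to 0.10 with 1 left out. The difference in summed share ran from -0.00548 to 0.0193 percentage points with 1 library left out and from 0.00554 to 0.0298 otherwise. It was 0.0275 with the Rn45s row left out, against 0.00798 in the main result. Of the wider ER list, 10 genes with an unadjusted p under 0.05 became 4 in DESeq2, 5 with the matrix covariate, 3 without DMSO replicates 3 and 5, and 7 to 13 with 1 library left out. Over all tested genes the count also fell, from 744 to 366 in DESeq2, 562 with the matrix covariate and 516 without DMSO replicates 3 and 5. With all genes of at least 1 molecule tested, 81 of 13815 had an adjusted p under 0.05, against 5 of 9580 in the main fit. Among them was Kdelr3, below the filter in the main fit, with an adjusted p = 0.0391. The cause was not tested. Scaling by library totals alone moved the median of all genes to -0.06 and the higher share of calls from 47% to 28.9%, with the members' median at 0.07 and 4 below 0. Herpud1 and Dnajb9 gave no value with the mean above 10, and at 122 and 83 molecules counting limits both.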
